A study of Mus musculus with 24 samples.

Results

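RNA bound to tagged ribosomes was precipitated from the mouse dentate gyrus, and the 4 precipitate libraries of day 27 were compared with the 4 of day 11. These 8 libraries were chosen by their labels alone, out of 12 precipitate libraries and 24 libraries in the whole series. All mice were female C57BL6 animals of the genotype Tg(Nestin-cre/ERT2) with 1 tagged and 1 wild-type allele of Rpl22 (RPL22HA/WT), and all received tamoxifen at 160 mg per kg daily for 5 days when they were 9 to 11 weeks old. At each day 2 libraries came from running mice, which had a wheel, and 2 from sedentary mice, whose wheel was blocked. Letters a and b name the libraries of day 11, and e and f those of day 27. The 12 input libraries hold RNA of the same dentate gyrus tissue before precipitation. Days are the treatment time of the labels. The comparison asks how the RNA on tagged ribosomes differed between an early and a late time.

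In the adult dentate gyrus, neural stem cells give rise to dividing intermediate progenitors, these become neuroblasts and immature granule neurons, and the immature neurons grow axons and dendrites and join the circuit as mature granule neurons. Tamoxifen switches on the Cre recombinase in cells that express it from the Nestin promoter, which is active in neural stem and progenitor cells, and the recombined cells and their descendants then carry Rpl22 with a haemagglutinin (HA) tag. The precipitate can therefore hold RNA from any cell type that descends from the recombined cells, stem cells that stay in place included. It is not a single cell type, although the labels assign it to immature neurons. In such bulk RNA, fewer cells of a type and less RNA per cell cannot be told apart.

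Levels are in TPM, a share of all transcripts scaled by gene length, as the authors deposited it. At day 11 the immature neuron marker Dcx stood at 137 ± 44.1 TPM (SD, n = 4) in precipitate and at 14.1 ± 0.314 TPM in input, and Eomes, a transcription factor of intermediate progenitors, at 60.8 ± 17.4 and 2.67 ± 0.810 TPM. Defining markers of the labelled population were thus present. Genes of stem cells and astrocytes were present as well, with Gfap at 431 ± 102 TPM in precipitate and 318 ± 28.2 TPM in input, and the somatostatin gene Sst of interneurons stood at 50.1 ± 9.98 TPM in precipitate against 376 ± 23.1 TPM in input. The tagged gene itself, Rpl22, fell from 171 ± 21.6 TPM at day 11 to 120.2 ± 13.9 TPM at day 27 in precipitate (log2 difference -0.51 ± 0.12, SE, limma adjusted p = 0.0144). Its 4 values at day 27 lay below those of day 11, but the call was lost without the sedentary library a of day 11 or either library of letter f, and without both libraries a (adjusted p = 0.154). Tagged and untagged Rpl22 RNA are not separated in these values.

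The 8 libraries correlated with each other at 0.969 to 0.987 (Pearson's r across genes of log2(TPM + 1), for which genes are not independent replicates), and no pair was identical. The running library a of day 11 stood apart in Rpph1, the RNA of ribonuclease P, which took 17.4% of its TPM and 5.96% to 7.0% in the other day 11 libraries. The mean level of olfactory receptor genes, which encode odour receptors of the nose, was 0.944 ± 0.380 TPM at day 11 and 1.62 ± 0.433 TPM at day 27. It was lowest in both libraries a of day 11 (0.709 and 0.565 TPM) and highest in the sedentary libraries of day 27 (1.93 and 2.05 TPM). The part of these library differences in the results was not tested, but counts of called genes are given without both libraries a, and with the olfactory receptor level as a covariate.

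**Figure D1:**
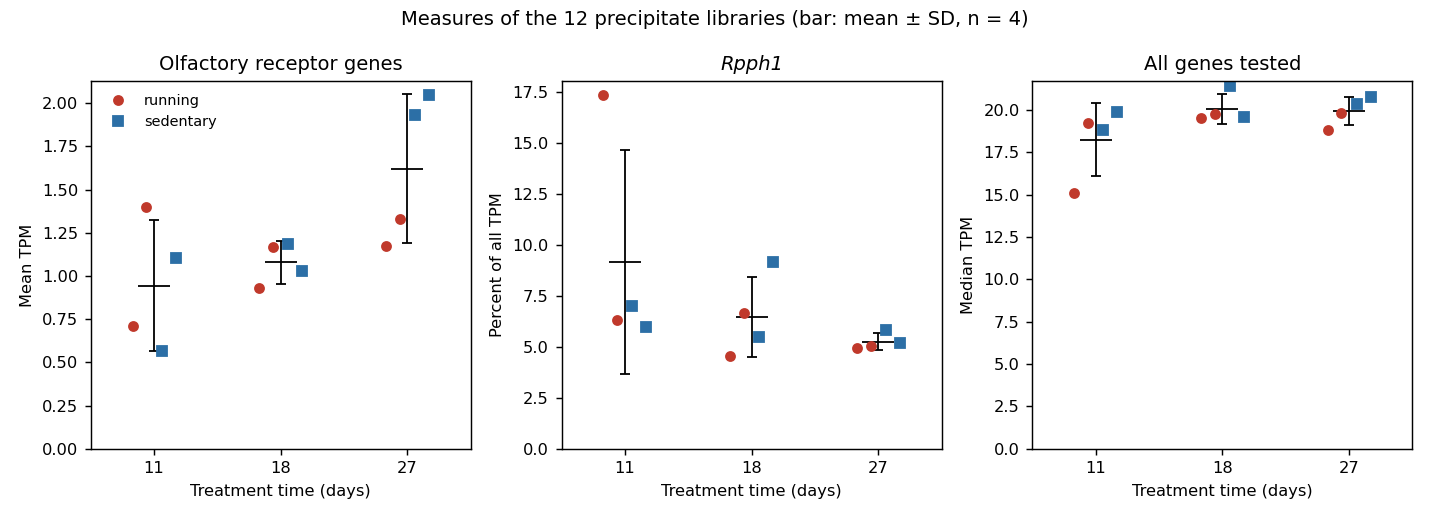
Mean TPM of olfactory receptor genes, Rpph1 as a percent of all TPM, and median TPM of the genes tested in each of the 12 precipitate libraries (running: circles, sedentary: squares), by day, with the mean and SD of 4 libraries as a bar. The running library a of day 11 is the highest for Rpph1 (17.4%) and the lowest for median TPM (15.1), and the sedentary day 27 libraries are the highest for olfactory receptor genes.

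Of 17282 genes tested, 1971 were higher at day 27 (11.4%) and 671 were lower (3.88%), at a limma p adjusted by the Benjamini-Hochberg method under 0.05. A difference is on the scale of log2(TPM + 1), day 27 minus day 11, averaged over both activities, and understates the change of genes with few TPM. The values of all 4 libraries of day 27 lay above all 4 of day 11 for 2282 genes (13.2%) and below them for 829 (4.8%). The median difference over all genes was 0.15, and 0.03 once libraries were scaled by the median of gene-wise ratios, a shift of 0.129. That scaling called 1282 genes higher (7.44%) and 1504 lower (8.73%), so that 46.0% of calls were higher, compared with 74.6% on TPM. A gene's direction is therefore read relative to the other genes, and the statements on named genes that follow hold under both scalings unless said otherwise. Nothing in the labels ties each library to a mouse of its own, and a p-value here measures only how these samples vary, in part perhaps for technical reasons.

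The number of calls moved with the libraries that entered. It was 453 higher and 183 lower without both libraries a of day 11. With single libraries left out it was 1024 and 578 without the running library a of day 11, 782 and 232 without the sedentary library a, 3535 and 650 without the running library b, 1185 and 389 without the running library f of day 27, 918 and 350 without the sedentary library e, and 940 and 297 without the sedentary library f. With the olfactory receptor level, which itself differed between the days, as a covariate, 68 genes were higher and 13 lower. Of the 190 called genes that the naming rule picked, 26 were called under every alternative and 92 under every one but this covariate, and the 26 include Top2a, Tpx2, Vim, Egr3, Grin1, Camk2a, Icam5, C1ql2, Ncdn, Slc8a2 and Slc12a5. Without both libraries a, 451 of the 1971 genes called higher and 162 of the 671 called lower were still called. None of the 2642 called genes changed sign there, which their selection and the libraries shared by both fits favor.

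Genes were grouped in 35 lists by role, whose median differences ranged from lists of dividing cells to those of mature neurons. The lists and their members were chosen with earlier results of these data known, so their medians and counts are descriptions, not tests. The median difference was -0.87 for replication-dependent histone genes, -0.73 for cell cycle genes and -0.72 for intermediate progenitor and neuroblast genes. It was 0.45 for glutamate receptor and postsynaptic genes, 0.49 for potassium, sodium and calcium channel genes and 0.61 for mature granule neuron genes, beside 0.15 over all genes tested. Counts of called members are to be read beside the shares of all genes. On TPM 11.4% of all genes were higher and 3.88% lower, and with median-of-ratios scaling 7.44% and 8.73%. Without both libraries a, 453 of 17608 genes were higher and 183 lower.

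**Figure D2:**
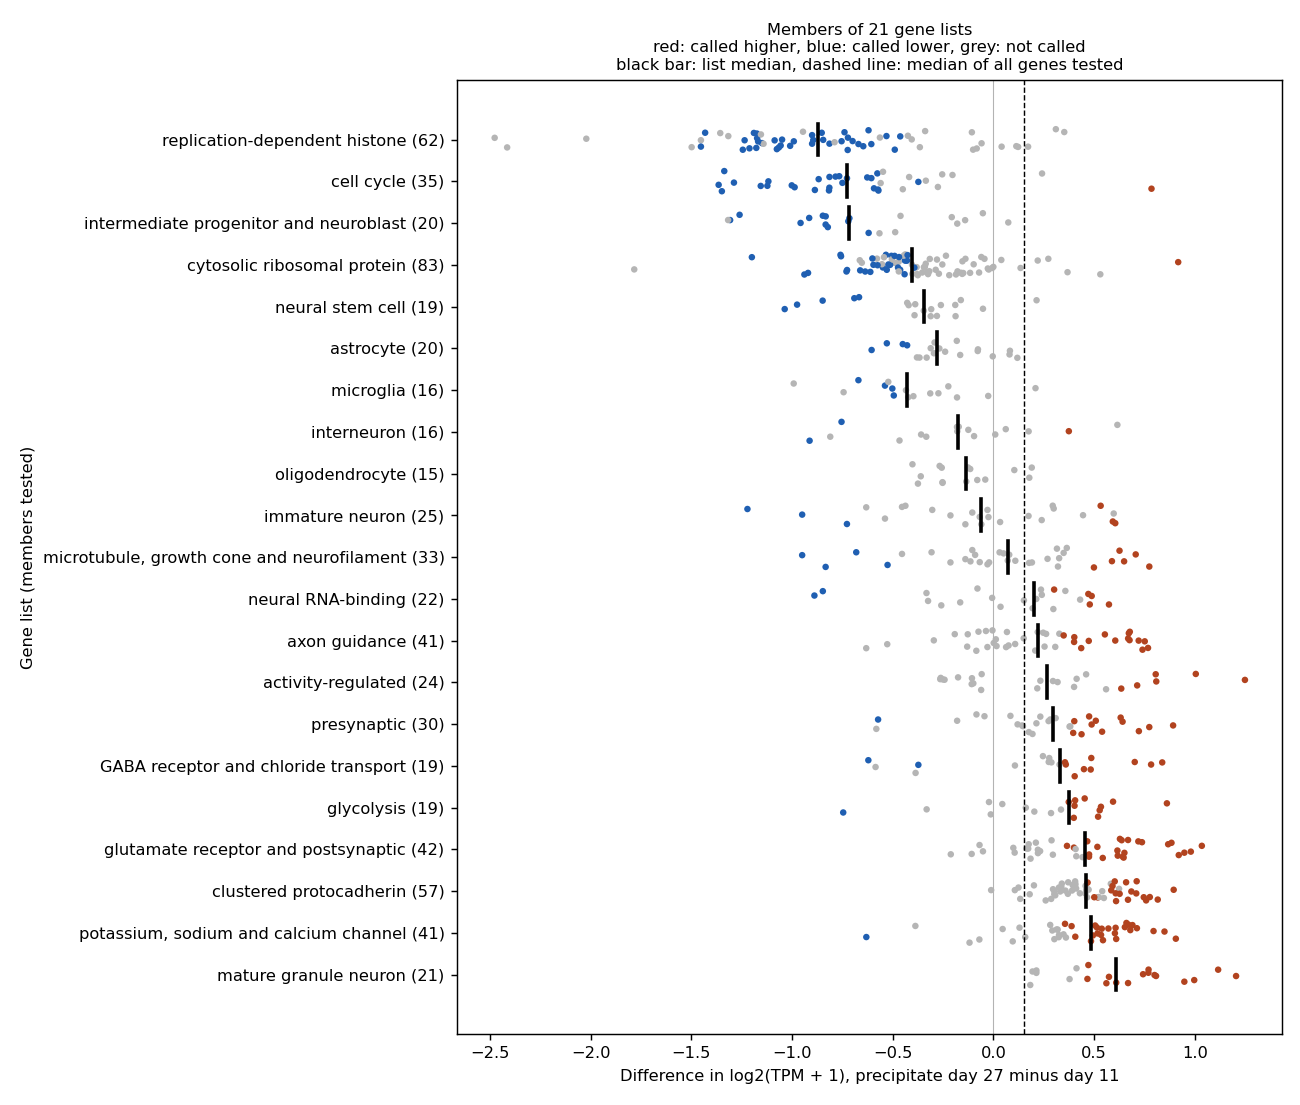
Difference in log2(TPM + 1) between day 27 and day 11 for each tested member of 21 gene lists (points; red called higher, blue called lower, grey not called), with each list's median (black bar) and the median of all genes tested, 0.15 (dashed line). Histone, cell cycle and progenitor lists lie to the left of the dashed line, and channel, postsynaptic and mature granule neuron lists to its right.

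Genes of dividing cells were lower at day 27. Of 35 cell cycle genes tested, 25 fell, 1 rose and 9 did not pass, beside 3.88% of all genes that fell. The median difference of the list was -0.73, and 29 members were called lower with median-of-ratios scaling and 13 without both libraries a. Top2a, the topoisomerase that untangles DNA in dividing cells (chr11:98992943-99024189, minus strand of mm10), stood at 76.5 and 95.3 TPM (running) and 82.7 and 64.5 TPM (sedentary) at day 11. At day 27 it stood at 32.0 and 33.4 TPM (running) and 35.0 and 27.2 TPM (sedentary). All 4 libraries of day 27 were lower than all 4 of day 11, and the mean was 2.5 times as high at day 11 (log2 difference -1.29 ± 0.14, SE, adjusted p = 0.000103).

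Leaving out histone genes, small RNAs and gene models without a proper name, the largest fall among called genes at 5 TPM or more with no overlap was in Nuf2, a kinetochore protein that holds chromosomes to the spindle (chr1:169497934-169531464, minus strand of mm10). It stood at 34.8 and 32.4 TPM (running) and 36.8 and 19.5 TPM (sedentary) at day 11 and at 8.36 and 11.8 TPM (running) and 9.42 and 8.31 TPM (sedentary) at day 27. The sedentary library b of day 11 was the lowest of its day and still above every day 27 library, and the mean was 3.26 times as high at day 11 (-1.58 ± 0.18 log2, adjusted p = 0.000146). Tpx2, a spindle assembly factor, went from 45.0 and 52.7 TPM (running) and 54.3 and 38.5 TPM (sedentary) to 20.1 and 16.1 TPM (running) and 18.2 and 17.5 TPM (sedentary), without overlap (-1.35 ± 0.13 log2, adjusted p = 6.87e-05). Ube2c, which serves the complex that ends mitosis, went from 28.4 and 32.2 TPM (running) and 31.3 and 19.2 TPM (sedentary) to 11.0 and 7.23 TPM (running) and 8.54 and 14.4 TPM (sedentary) (-1.36 ± 0.21 log2, adjusted p = 0.000841). Its sedentary library b at day 11 and sedentary library f at day 27 came closest to each other, and the days did not overlap. Spc25, a partner of Nuf2, fell from 31.1 ± 10.7 to 10.3 ± 1.00 TPM, Cenpf from 37.9 ± 5.57 to 16.7 ± 0.595 TPM, and the kinase gene Pbk from 22.8 ± 3.38 to 9.16 ± 2.74 TPM.

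Mki67, the gene of the proliferation marker Ki-67, fell from 27.0 ± 6.46 to 14.6 ± 0.894 TPM (-0.81 ± 0.18 log2, adjusted p = 0.00723). The 4 values of day 27 lay between 13.4 and 15.6 TPM and those of day 11 between 18.0 and 31.8 TPM. Without the sedentary library a of day 11 its adjusted p was 0.0505, and without both libraries a it was 0.0605. Among the cell cycle genes that did not pass, the replication genes Pcna and Mcm2 had differences of -0.45 and -0.42 (adjusted p = 0.0659 and 0.0793), and the cyclin gene Ccnd1 had one of 0.24 (adjusted p = 0.276). The member that rose was Tyms, thymidylate synthase, named here after its value was seen, from 536 ± 177 to 907 ± 229.5 TPM. The day 11 and day 27 values of Tyms overlapped, and its call was lost when either library a of day 11 or the sedentary e, sedentary f or running f library of day 27 was left out.

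Promoter sequence is shown for 8 of the genes that fell, because many genes of the late cell cycle are known to share short promoter elements. The 100 bases before the transcription start are from RefSeq (build GRCm38.p6), 5' to 3' on the gene's strand. Capitals mark TTTGAA, the cell cycle homology region, or CCAAT, the CCAAT box, on either strand. Hmgb2 encodes a chromatin protein of dividing cells, Cenpf and Cenpe encode proteins of the kinetochore. Nuf2 holds neither element in the 250 bases before its start, and Spc25, Cenpf and Cenpe hold CCAAT but not TTTGAA there.
Top2a (chr11:99024190-99024289, minus strand): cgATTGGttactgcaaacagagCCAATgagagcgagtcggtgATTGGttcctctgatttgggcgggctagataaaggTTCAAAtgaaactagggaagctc
Ube2c (chr2:164769829-164769928, plus strand): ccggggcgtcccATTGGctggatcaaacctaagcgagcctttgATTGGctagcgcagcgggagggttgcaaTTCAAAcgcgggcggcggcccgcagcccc
Hmgb2 (chr8:57511743-57511842, plus strand): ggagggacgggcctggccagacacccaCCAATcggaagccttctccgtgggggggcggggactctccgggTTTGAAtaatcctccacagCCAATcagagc
Mki67 (chr7:135716380-135716479, minus strand): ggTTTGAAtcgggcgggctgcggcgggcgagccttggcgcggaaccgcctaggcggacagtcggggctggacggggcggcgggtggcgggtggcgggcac
Spc25 (chr2:69206214-69206313, minus strand): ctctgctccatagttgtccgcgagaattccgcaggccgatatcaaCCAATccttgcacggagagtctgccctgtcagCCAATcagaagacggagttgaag
Cenpf (chr1:189688087-189688186, minus strand): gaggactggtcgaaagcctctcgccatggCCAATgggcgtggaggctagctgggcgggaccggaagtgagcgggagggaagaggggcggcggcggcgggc
Cenpe (chr3:135212463-135212562, plus strand): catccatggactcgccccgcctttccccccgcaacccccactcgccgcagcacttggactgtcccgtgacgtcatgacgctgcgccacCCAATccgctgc
Nuf2 (chr1:169531465-169531564, minus strand): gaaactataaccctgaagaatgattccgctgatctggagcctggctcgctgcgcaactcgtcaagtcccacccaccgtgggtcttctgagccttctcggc
Both elements were found in the 250 bases before the start of 617 of 12482 tested genes with a RefSeq promoter (4.94%). They were found together in 10 of the 28 such genes of the cell cycle list (35.7%) and in 8 of its 21 members called lower (38.1%). Among all called lower genes the share was 9.17% (42 of 458), among those that fell by more than 1 on the log2 scale 26.5% (9 of 34), and among called higher genes 3.34%. TTTGAA, with or without CCAAT, was in 13.2% of all promoters and 32.4% of those of genes that fell by more than 1. CCAAT, with or without TTTGAA, was in 39.7% and 58.8%. Adjoining matches of the motifs may share an end base, and a match is a description of the sequence, not of a bound factor.

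Replication-dependent histone genes, which are made in quantity during DNA synthesis, were lower in many cases. Of 62 tested, 36 fell, none rose and 26 did not pass, with a median of -0.87, and 15 were called lower without both libraries a. Hist1h3b stood at 134 and 153 TPM (running) and 159 and 90.4 TPM (sedentary) at day 11 and at 62.4 and 56.9 TPM (running) and 49.0 and 51.5 TPM (sedentary) at day 27, without overlap (-1.24 ± 0.15 log2, adjusted p = 0.000216). Hist1h2af fell from 237 ± 44.4 to 105 ± 7.56 TPM, and the linker histone gene Hist1h1c from 213 ± 45.9 to 105 ± 12.1 TPM (-0.99 ± 0.14 log2). Many genes of the same histone class are near-identical copies of one another, and how their reads were shared out is not given in the sources used here.

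Many genes of intermediate progenitors and neuroblasts fell. Of 20 tested, 11 fell and none rose (median -0.72), and 8 were called lower without both libraries a. Eomes (chr9:118478212-118486132, plus strand of mm10), the defining transcription factor of intermediate progenitors, stood at 45.3 and 75.7 TPM (running) and 75.9 and 46.3 TPM (sedentary) at day 11 and at 25.1 and 26.8 TPM (running) and 24.7 and 20.1 TPM (sedentary) at day 27. At day 11 each activity had 1 library near the low end and 1 near the high end, and all of them were above day 27 (-1.26 ± 0.18 log2, adjusted p = 0.000556). Neurod4, a proneural factor, went from 9.66 ± 2.92 to 3.27 ± 0.995 TPM without overlap (-1.31 ± 0.25 log2, adjusted p = 0.00374, and 0.0504 without both libraries a). Insm1, which drives progenitors toward neurons, fell from 19.4 ± 2.84 to 9.83 ± 1.79 TPM and Nhlh2 from 13.4 ± 3.48 to 6.37 ± 1.56 TPM. Neurod1, a factor needed for the survival of newborn granule neurons, fell from 299 ± 48.9 to 195 ± 41.7 TPM (-0.62 ± 0.15 log2, adjusted p = 0.0156). Its running library e of day 27, at 257 TPM, lay within the day 11 range, and its call was lost without the sedentary library a, either library f, or both libraries a.

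Of 19 neural stem cell genes, 5 fell and none rose (median -0.35), and 12 were called lower with median-of-ratios scaling. Vim, the filament protein vimentin of immature glia and stem cells, went from 198 and 258 TPM (running) and 273 and 239 TPM (sedentary) to 99.95 and 93.1 TPM (running) and 158 and 149 TPM (sedentary) (-0.97 ± 0.12 log2, adjusted p = 0.000216). The days did not overlap. Pax6 fell from 32.9 ± 3.76 to 20.4 ± 3.12 TPM and the lipid carrier gene Fabp7 from 292 ± 58.8 to 179 ± 24.3 TPM. Fabp7 lost its call without the sedentary library b of day 11 or either library f of day 27. Markers of resting stem cells did not pass on TPM. Nes, whose promoter drives the Cre, stood at 52.0 ± 10.6 and 50.2 ± 11.0 TPM (adjusted p = 0.821), Hopx at 179 ± 23.7 and 159 ± 35.1 TPM (adjusted p = 0.311) and Gfap at 431 ± 102 and 343 ± 63.3 TPM (adjusted p = 0.164, and 0.0277 with median-of-ratios scaling).

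Of 25 genes of immature neurons, 3 were higher and 3 lower on TPM, beside 11.4% and 3.88% of all genes, with a median of -0.06. With median-of-ratios scaling 3 were higher and 7 lower (median -0.21), and without both libraries a 1 was higher and none lower. Calb2, calretinin, a calcium binding protein of young granule neurons (chr8:110137502-110168210, minus strand of mm10), stood at 457 and 463 TPM (running) and 368 and 193 TPM (sedentary) at day 11. At day 27 it stood at 247 and 131 TPM (running) and 129.6 and 119 TPM (sedentary). The sedentary library b of day 11, at 193 TPM, lay below the running library e of day 27, so the days overlapped, and the mean was 2.36 times as high at day 11 (-1.22 ± 0.25 log2, adjusted p = 0.00862, and 0.0713 without both libraries a). Dcx, doublecortin, a microtubule protein of migrating neurons, stood at 90.5 and 192 TPM (running) and 149 and 114 TPM (sedentary) at day 11 and at 112 and 94.1 TPM (running) and 77.0 and 81.4 TPM (sedentary) at day 27. The running library a was the lowest of day 11 and within the day 27 range, and the difference did not pass (-0.54 ± 0.22 log2, adjusted p = 0.114). It passed with median-of-ratios scaling (adjusted p = 0.0253) and when the running library a was left out (0.0125). Sox11, a transcription factor of immature neurons, stood at 162 ± 48.9 and 113 ± 12.9 TPM (adjusted p = 0.139). It passed with median-of-ratios scaling (0.0294), without the running library a (0.00829) and without both libraries a (0.0388). Prox1, which keeps granule neuron identity at all ages, stood at 420.3 ± 57.7 and 476 ± 81.6 TPM (adjusted p = 0.378).

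Among the other members of that list, Neurod6 fell from 70.0 ± 13.3 to 41.4 ± 2.70 TPM and the actin-sequestering Tmsb10 from 517 ± 61.3 to 279.5 ± 99.4 TPM. The semaphorin receptor gene Plxna4 rose from 149 ± 15.1 to 229 ± 44.1 TPM, Neurod2 from 122 ± 21.2 to 178 ± 36.2 TPM and the kinase gene Camk4 from 35.6 ± 6.78 to 54.8 ± 13.2 TPM. Of these 5, Plxna4 alone kept its call without both libraries a (adjusted p = 0.0431). Tmsb10, Neurod2 and Camk4 also lost their calls without the running library a of day 11 or the sedentary library f of day 27, and Tmsb10 and Neurod2 without the sedentary library a of day 11. Tubb3, a neuronal tubulin, stood at 256 ± 57.2 and 234 ± 67.2 TPM and did not pass (adjusted p = 0.676).

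**Figure D3:**
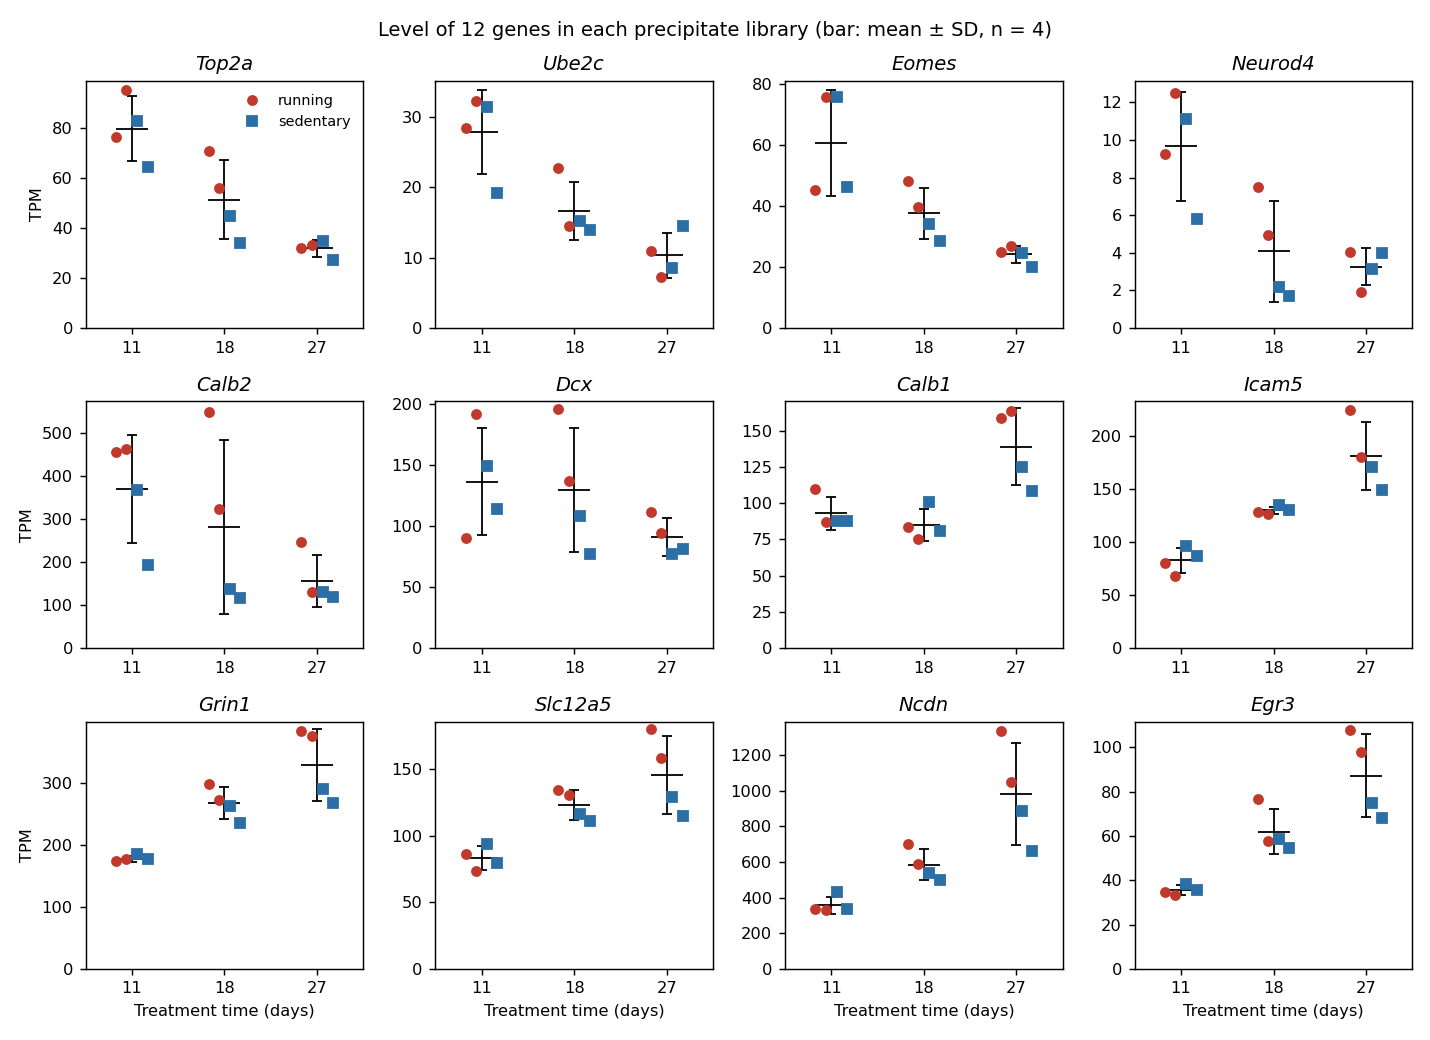
TPM of 12 genes in each of the 12 precipitate libraries at days 11, 18 and 27 (running: circles, sedentary: squares), with the mean and SD of 4 libraries as a bar; each axis starts at 0. Top2a, Ube2c, Eomes and Neurod4 are lower at day 27 without overlap with day 11, Calb2, Dcx and Calb1 overlap between these days, and Icam5, Grin1, Slc12a5, Ncdn and Egr3 are higher without overlap.

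Mature granule neuron genes were higher at day 27. Of 21 tested, 15 rose, none fell and 6 did not pass (median 0.61), beside 11.4% of all genes that rose, and 10 were called higher without both libraries a. Icam5, an adhesion molecule of forebrain neuron dendrites (chr9:21032073-21039036, plus strand of mm10), stood at 79.9 and 68.0 TPM (running) and 96.0 and 86.7 TPM (sedentary) at day 11. At day 27 it stood at 224 and 179.6 TPM (running) and 171 and 149 TPM (sedentary). The days did not overlap and the mean rose 2.19-fold (1.12 ± 0.11 log2, adjusted p = 7.27e-05). C1ql2, a synaptic organizer that granule neurons release at mossy fiber terminals, went from 39.2 and 39.7 TPM (running) and 54.7 and 45.7 TPM (sedentary) to 143 and 102 TPM (running) and 107 and 74.0 TPM (sedentary) (1.21 ± 0.14 log2, adjusted p = 0.000141). Its relative C1ql3 rose from 83.0 ± 9.08 to 143 ± 22.2 TPM, Plk5 from 14.4 ± 5.44 to 28.3 ± 1.88 TPM and the calcium sensor gene Syt7 from 141 ± 19.7 to 240.0 ± 17.8 TPM. Calb1, calbindin, the marker that replaces calretinin as granule neurons mature, stood at 110.0 and 87.0 TPM (running) and 87.4 and 87.5 TPM (sedentary) at day 11 and at 159 and 163 TPM (running) and 125 and 108 TPM (sedentary) at day 27. The sedentary library f of day 27 lay just under the running library a of day 11. The difference passed on TPM (0.56 ± 0.11 log2, adjusted p = 0.00503) and without both libraries a (0.0226), but not with median-of-ratios scaling (0.0628).

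Many genes of the glutamate synapse rose. Of 42 glutamate receptor and postsynaptic genes, 23 rose, none fell and 19 did not pass (median 0.45), and 17 were called higher with median-of-ratios scaling and 14 without both libraries a. Grin1, the obligatory subunit of the NMDA receptor (chr2:25291181-25319187, minus strand of mm10), stood at 173 and 177 TPM (running) and 185 and 177 TPM (sedentary) at day 11. At day 27 it stood at 384 and 375 TPM (running) and 291 and 268 TPM (sedentary). The 4 day 11 values spanned 173 to 185 TPM and all day 27 values were above them, the running ones highest (0.87 ± 0.11 log2, adjusted p = 0.000216). Of the subunits that pair with Grin1, Grin2b rose from 190.5 ± 34.7 to 315 ± 30.6 TPM (adjusted p = 0.00155) and Grin2a from 217 ± 26.5 to 347 ± 54.2 TPM (adjusted p = 0.00333, and 0.0658 without both libraries a). Grin2b is known as a subunit of young synapses and Grin2a as one of older synapses.

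Camk2a, the kinase that NMDA receptor calcium activates, went from 939 and 856 TPM (running) and 999 and 943 TPM (sedentary) to 2291 and 2036 TPM (running) and 1636 and 1378 TPM (sedentary), without overlap (0.95 ± 0.14 log2, adjusted p = 0.000497). Its partner subunit Camk2b rose from 411 ± 40.0 to 796 ± 209 TPM. Cacng8, which tethers AMPA receptors at synapses, rose from 71.0 ± 14.3 to 145 ± 16.5 TPM, the presynaptic metabotropic receptor gene Grm2 from 46.6 ± 4.15 to 94.4 ± 21.1 TPM and the scaffold gene Dlgap3 from 66.1 ± 10.3 to 103 ± 9.87 TPM. Of the AMPA receptor subunits, Gria1 rose by 0.48 on the log2 scale (adjusted p = 0.0171). The Gria1 call was lost with median-of-ratios scaling, without the sedentary library a of day 11 and without both libraries a. Gria2, Gria3 and Gria4 did not pass, at 0.22, 0.11 and -0.21 (adjusted p = 0.352, 0.553 and 0.224).

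Of 30 presynaptic genes, 12 rose, 1 fell and 17 did not pass (median 0.30), and 7 were called higher with median-of-ratios scaling and 6 without both libraries a. Rph3a, a vesicle protein that binds Rab3, went from 136 and 123 TPM (running) and 135 and 129 TPM (sedentary) to 314 and 268 TPM (running) and 217 and 190.1 TPM (sedentary) (0.89 ± 0.11 log2, adjusted p = 0.00022). Its day 11 values lay within 123 to 136 TPM and did not overlap with day 27. The vesicular glutamate transporter gene Slc17a7 rose from 212 ± 18.3 to 353 ± 65.1 TPM, synapsin gene Syn1 from 203 ± 18.2 to 324 ± 78.4 TPM, Sv2a from 63.0 ± 5.33 to 110.2 ± 24.5 TPM and the active zone scaffold gene Bsn from 132 ± 19.8 to 191 ± 16.4 TPM. The member that fell was Sv2b, named after its value was seen, from 41.8 ± 5.99 to 27.9 ± 4.78 TPM (adjusted p = 0.0112). Its call was lost without the sedentary library a of day 11, without both libraries a, or without the sedentary library e of day 27.

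In the GABA and chloride list, 9 of 19 genes rose and 2 fell (median 0.33), but 5 were higher and 4 lower with median-of-ratios scaling, and 3 higher without both libraries a. Slc12a5 encodes KCC2, the transporter that pumps chloride out of maturing neurons (chr2:164960802-164999731, plus strand of mm10), and stood at 86.1 and 73.3 TPM (running) and 93.9 and 79.4 TPM (sedentary) at day 11. At day 27 it stood at 179.9 and 158 TPM (running) and 129 and 115 TPM (sedentary). The days did not overlap (0.78 ± 0.11 log2, adjusted p = 0.000402). Slc12a2 encodes NKCC1, which brings chloride into young neurons, and fell from 50.02 ± 4.33 to 38.4 ± 2.90 TPM without overlap (-0.37 ± 0.11 log2, adjusted p = 0.0301). The Slc12a2 call was lost without the sedentary library a of day 11 or the running e, sedentary e or sedentary f library of day 27, and its adjusted p was 0.126 without both libraries a and 0.0608 with the 8 libraries alone. Gabrd, a subunit of extrasynaptic receptors of granule neurons, rose from 19.0 ± 6.24 to 33.6 ± 3.11 TPM (adjusted p = 0.00147). The receptor gene Gabbr2 rose from 122 ± 8.54 to 203 ± 40.3 TPM. Gabra2, a receptor subunit, stood at 333 ± 58.1 and 256 ± 50.2 TPM (adjusted p = 0.109, and 0.0407 with median-of-ratios scaling).

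Many ion channel genes rose. Of 41 potassium, sodium and calcium channel genes, 24 rose, 1 fell and 16 did not pass (median 0.49), and 21 were called higher with median-of-ratios scaling and 12 without both libraries a. Kcnab2, an auxiliary subunit of voltage-gated potassium channels, went from 78.2 and 73.8 TPM (running) and 93.3 and 83.2 TPM (sedentary) to 160.5 and 156 TPM (running) and 137 and 121 TPM (sedentary) (0.80 ± 0.10 log2, adjusted p = 0.000217). The days did not overlap. The T-type calcium channel gene Cacna1h rose from 44.3 ± 6.56 to 80.3 ± 9.97 TPM and Cacna1a, the P/Q-type channel of terminals, from 60.4 ± 4.71 to 92.4 ± 9.67 TPM. Kcnh1 rose from 20.2 ± 3.29 to 38.6 ± 5.00 TPM and Kcnq3, of the M-current, from 43.1 ± 8.16 to 69.2 ± 9.24 TPM. Kcnq5, named after its value was seen, fell from 11.3 ± 0.211 to 7.0 ± 1.3 TPM, and lost its call without the sedentary library a of day 11, without both libraries a, or without either sedentary library of day 27.

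Of 24 activity-regulated genes, which neurons switch on after firing, 6 rose and none fell (median 0.27), and 5 were called higher without both libraries a. Egr3, a zinc finger factor (chr14:70077203-70082614, plus strand of mm10), stood at 34.6 and 33.3 TPM (running) and 38.5 and 35.7 TPM (sedentary) at day 11 and at 108 and 97.9 TPM (running) and 74.8 and 68.2 TPM (sedentary) at day 27. The day 11 values lay within 33.3 to 38.5 TPM, and the lowest day 27 value was 68.2 TPM (2.45-fold, 1.25 ± 0.11 log2, adjusted p = 4.65e-05). Egr1 rose from 12.2 ± 1.95 to 22.1 ± 3.77 TPM, Egr4 from 3.23 ± 1.02 to 7.36 ± 0.787 TPM and Junb from 12.3 ± 1.72 to 22.4 ± 3.57 TPM. The secreted pentraxin gene Nptx1 rose from 133 ± 21 to 218 ± 27.2 TPM. Bdnf, a neurotrophin, rose from 24 ± 2.69 to 38.3 ± 8.19 TPM (adjusted p = 0.00513, and 0.051 without both libraries a). Arc, at 15.9 ± 2.24 and 18.5 ± 1.23 TPM, did not pass (adjusted p = 0.301).

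The genes with the largest rise at 5 TPM or more and no overlap were of mixed function. Ncdn, neurochondrin, a cytoplasmic protein that restrains Camk2 (chr4:126743750-126753438, minus strand of mm10), stood at 336 and 329.7 TPM (running) and 429 and 337 TPM (sedentary) at day 11. At day 27 it stood at 1337 and 1052 TPM (running) and 885 and 661 TPM (sedentary). The days did not overlap, it was the most abundant of these 15 genes at day 27, and its mean rose 2.75-fold (1.42 ± 0.14 log2, adjusted p = 7.48e-05). Slc8a2, a sodium-calcium exchanger (chr7:16129826-16161063, plus strand of mm10), went from 102 and 107 TPM (running) and 121 and 118 TPM (sedentary) to 409 and 345 TPM (running) and 262 and 199.6 TPM (sedentary) (2.71-fold, 1.38 ± 0.12 log2, adjusted p = 4.65e-05). Fstl4, a follistatin-like secreted protein, went from 12.4 and 15.8 TPM (running) and 16.9 and 20.2 TPM (sedentary) to 49.4 and 49.0 TPM (running) and 42.2 and 37.1 TPM (sedentary) (1.40 ± 0.13 log2, adjusted p = 4.95e-05). Cdhr1, a cadherin, rose from 6.55 ± 1.75 to 18.4 ± 2.48 TPM and the transcription factor gene Cebpb from 23.9 ± 3.03 to 55.7 ± 5.84 TPM. Xkrx rose from 56.8 ± 15.3 to 249.7 ± 76.2 TPM (4.39-fold, adjusted p = 0.00329, and 0.0504 without both libraries a). Egr3 and C1ql2, given above, are also among the 15. The other 7 genes, Olfr547, Arl9, Tmem254a, Cryaa, Fam89a, Foxh1 and Kcnk4, rose by 1.17 to 1.96 on the log2 scale and stood at a mean of at most 3.88 TPM at day 11. Of these 7, Olfr547, Cryaa, Fam89a, Foxh1 and Kcnk4 lost their calls without both libraries a (adjusted p = 0.0565, 0.0697, 0.0828, 0.231 and 0.175).

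Many of the 15 genes with the largest fall have been given. Of the others, Hmgb2 stood at 179 and 141 TPM (running) and 165 and 99.5 TPM (sedentary) at day 11 and at 67.2 and 41.3 TPM (running) and 60.2 and 58.6 TPM (sedentary) at day 27 (-1.34 ± 0.17 log2, adjusted p = 0.000405), without overlap. Lgals1, the lectin galectin-1, went from 10.8 and 12.1 TPM (running) and 12.9 and 14.2 TPM (sedentary) to 2.10 and 2.72 TPM (running) and 6.78 and 7.22 TPM (sedentary) (-1.36 ± 0.19 log2, adjusted p = 0.000405), and its running libraries of day 27 were the lowest of the 8. Hmgn5, a nucleosome binding protein, fell from 232 ± 61.5 to 95.3 ± 18.9 TPM and Shcbp1 from 8.93 ± 1.01 to 3.12 ± 0.508 TPM. Pfdn4, Rab13 and Lsm5 fell by 1.25, 1.24 and 1.21 on the log2 scale, and each lost its call without the sedentary library a of day 11 and without both libraries a.

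Genes of axon guidance and neuronal structure split. Of 41 axon guidance genes, 15 rose and none fell (median 0.22), with 11 called higher and 2 lower with median-of-ratios scaling and 6 higher without both libraries a. Slit3, a repulsive ligand, rose from 75.6 ± 11.8 to 129 ± 13.8 TPM, the netrin receptor gene Unc5a from 60.9 ± 6.93 to 97.7 ± 10.3 TPM, the adhesion molecule gene Cntn1 from 152 ± 13.5 to 259.7 ± 64.7 TPM and the ephrin gene Efnb3 from 48.3 ± 11.3 to 78.8 ± 6.15 TPM. Of 33 genes of microtubules, growth cones and neurofilaments, 6 rose and 4 fell (4 and 5 with median-of-ratios scaling), and the median of 0.07 turned to -0.07 with median-of-ratios scaling. Map1a, a microtubule protein of mature dendrites, went from 255 and 200.1 TPM (running) and 246 and 208 TPM (sedentary) to 469 and 456 TPM (running) and 349 and 302 TPM (sedentary) (0.77 ± 0.12 log2, adjusted p = 0.000883), without overlap. The neurofilament gene Ina rose from 63.0 ± 6.38 to 101 ± 22.2 TPM. Stmn1, which destabilizes microtubules in young neurons, fell from 1340.0 ± 220.1 to 763 ± 205 TPM (-0.83 ± 0.19 log2, adjusted p = 0.0099, and 0.0836 without both libraries a). The Stmn1 call was also lost without the sedentary library a of day 11 alone.

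Of 57 clustered protocadherin genes, whose products give neurons individual surface identities, 19 rose and none fell (median 0.46). Over all genes 11.4% rose. Without both libraries a, 2 protocadherin genes were called higher, beside 453 of 17608 genes in that fit. Pcdhgc5 went from 40.0 and 43.5 TPM (running) and 46.4 and 44.7 TPM (sedentary) to 99.8 and 102 TPM (running) and 77.2 and 57.1 TPM (sedentary), without overlap (0.90 ± 0.12 log2, adjusted p = 0.000321). Pcdhgc5 shares its last exons with other genes of its cluster, and how reads of shared exons were divided is not given in the sources used here. Of 22 neural RNA-binding protein genes, 5 rose and 2 fell on TPM, but 3 were higher and 5 lower with median-of-ratios scaling, and none higher and 2 lower without both libraries a. Elavl4 fell from 26.7 ± 4.42 to 13.9 ± 1.32 TPM (-0.89 ± 0.15 log2, adjusted p = 0.00195) and Elavl2 from 34.8 ± 7.22 to 18.6 ± 0.776 TPM, both proteins that stabilize messages of differentiating neurons. Rbfox3, the splicing factor known as NeuN, rose from 145 ± 16.7 to 217 ± 24.2 TPM (adjusted p = 0.00388, and 0.0636 without both libraries a).

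Among 25 chromatin and DNA methylation genes, 5 rose and 3 fell on TPM (median -0.01), but 4 were higher and 6 lower with median-of-ratios scaling (median -0.15). Lmnb1, lamin B1 of the nuclear envelope, stood at 161 and 154 TPM (running) and 162 and 109.9 TPM (sedentary) at day 11 and at 87.2 and 62.7 TPM (running) and 67.1 and 61.5 TPM (sedentary) at day 27 (-1.06 ± 0.14 log2, adjusted p = 0.000283). Lmna, lamin A/C, went the other way, from 23.0 ± 0.438 to 38.2 ± 8.91 TPM (adjusted p = 0.00281), and neither gene overlapped between the days. Ezh2, the histone methyltransferase of progenitors, fell from 69.3 ± 8.37 to 44.3 ± 4.72 TPM, and the DNA methyltransferase gene Dnmt3a rose from 36.0 ± 5.29 to 57.4 ± 6.73 TPM. Both kept their calls without both libraries a (adjusted p = 0.0253 and 0.0263).

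Ribosomal protein genes of the cytosol were partly lower, with 29 of 83 falling and 1 rising (median -0.40), with 5 called lower without both libraries a. Rpl14 went from 728 and 534 TPM (running) and 518 and 522 TPM (sedentary) to 364 and 229 TPM (running) and 335 and 276 TPM (sedentary), without overlap (-0.94 ± 0.16 log2, adjusted p = 0.00169). Rps26 fell from 657 ± 106 to 397 ± 73.0 TPM and Rps20 from 269 ± 15.3 to 174 ± 24.1 TPM. The member that rose was Rps27, from 9.83 ± 3.23 to 19.1 ± 3.77 TPM, named after its value was seen, and its call was lost without the sedentary library a of day 11 or the sedentary library f of day 27. Ribosomal protein genes have many near-identical pseudogenes, so their values are uncertain. In the list of oxidative phosphorylation genes of the nuclear genome, 5 of 83 fell and 1 rose (median -0.07), beside 3.88% and 11.4% of all genes, and 8 were lower and none higher with median-of-ratios scaling, and none was called without both libraries a.

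Of 19 glycolysis genes, 10 rose and 1 fell (median 0.37), but 3 rose and 2 fell with median-of-ratios scaling. Eno2, the neuronal enolase, went from 106 and 117 TPM (running) and 124 and 110.4 TPM (sedentary) to 253 and 219 TPM (running) and 195 and 173 TPM (sedentary) (0.86 ± 0.11 log2, adjusted p = 0.000285), without overlap. Eno1, the enolase of dividing and non-neuronal cells, named after its value was seen, fell from 137 ± 19.1 to 81.5 ± 14.7 TPM (adjusted p = 0.0413). The Eno1 call was lost in 7 of the 8 fits that left out 1 library, all but that without the running library b of day 11. The neuronal glucose transporter gene Slc2a3 rose from 43.0 ± 4.63 to 65.2 ± 5.79 TPM.

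In several signalling groups the calls depended on the scaling. Over all genes 11.4% rose and 3.88% fell on TPM, and 7.44% and 8.73% with median-of-ratios scaling. Of 38 Notch, Wnt and BMP genes, none rose and 2 fell on TPM, and 6 were lower with median-of-ratios scaling. The 2 were Id2, which holds back differentiation and went from 187 ± 43.2 to 108 ± 8.80 TPM, and Bmpr1b, which went from 19.8 ± 2.47 to 13.9 ± 2.31 TPM. None of 16 cholesterol synthesis genes was called on TPM, and 3 were lower with median-of-ratios scaling. Of 17 apoptosis genes 1 was called on TPM, Bbc3, which rose from 7.20 ± 1.59 to 13 ± 4.01 TPM, and 1 was higher and 2 lower with that scaling. Of 20 growth factor and receptor genes, 3 rose and 1 fell on TPM, and 1 was higher and 2 lower with that scaling. Of 12 corticosteroid response genes, 4 rose on TPM, and 3 were higher and 1 lower with that scaling, with the mineralocorticoid receptor gene Nr3c2 going from 128 ± 19.4 to 204 ± 37.1 TPM. Of 17 extracellular matrix genes, 2 rose and 2 fell on TPM (2 and 4 with that scaling), among them Tnr, tenascin-R, from 91.4 ± 14.8 to 140.5 ± 16.1 TPM and Tnc, tenascin-C, from 49.5 ± 8.29 to 35.5 ± 4.64 TPM. Only Id2, Tnr and Tnc of these 6 genes kept their calls without both libraries a. Bmpr1b and Bbc3 also lost theirs without the sedentary library a of day 11 or any 1 of the running e, sedentary e and sedentary f libraries of day 27, and Tnc lost its call without the sedentary library b of day 11 or the running e, sedentary e or sedentary f library of day 27.

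Markers of other cell types moved in part with the progenitor and stem cell genes. Of 20 astrocyte markers, 4 fell and none rose (10 were lower with median-of-ratios scaling, and none without both libraries a), and their summed level ranged from 9640 to 12700 TPM at day 11 and from 7540 to 10800 TPM at day 27. Apoe, which carries lipid from astrocytes, went from 3314 and 2622 TPM (running) and 3216 and 3060.2 TPM (sedentary) to 1771 and 1554 TPM (running) and 2693 and 2158 TPM (sedentary). The days overlapped by 1 library, and the call (adjusted p = 0.0174) was lost without either library a of day 11, without the sedentary library f of day 27 and without both libraries a (0.154). Of 16 microglia markers, 4 fell and none rose, with sums of 210.0 to 266 TPM at day 11 and 133 to 192 TPM at day 27, and none was called without both libraries a. Cx3cr1, a microglial receptor, stood at 12.3 ± 1.87 and 10.8 ± 2.25 TPM (adjusted p = 0.487).

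Of 15 oligodendrocyte markers none was called, and their sums ranged from 1080.0 to 1450.0 TPM at day 11 and from 941 to 1300.0 TPM at day 27, with the myelin gene Mbp at 122 ± 11.1 and 118 ± 11.9 TPM. Of 12 oligodendrocyte precursor markers 1 fell, of 16 vascular markers 1 rose, of 8 tested ependymal and choroid plexus markers 1 rose, and of 17 markers of pyramidal and mossy neurons 1 rose and 1 fell. With median-of-ratios scaling the precursor list had 3 lower, the vascular list 1 lower and none higher, and the pyramidal and mossy list 4 lower and none higher. Of 16 interneuron markers, 1 rose and 2 fell, and with that scaling none was higher and 3 were lower. The marker that rose was Gad1. Its call was lost with that scaling (limma adjusted p = 0.0895) and without both libraries a (0.121). Sst went from 63.4 and 40.8 TPM (running) and 51.8 and 44.4 TPM (sedentary) to 35.5 and 29.4 TPM (running) and 30.0 and 22.2 TPM (sedentary) (-0.75 ± 0.20 log2, adjusted p = 0.0264), and lost its call without either or both libraries a of day 11 or without either library f of day 27. No marker of these lists was listed at 0 in all 8 libraries. Whether the RNA of these markers in precipitate came from tagged cells was not tested. The part of these other cell types in the differences of the other groups was not tested either.

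Of 195 olfactory receptor genes tested, 19 rose and none fell (median 0.51), beside the 11.4% of all genes that rose, and 1 was called higher without both libraries a. The same genes make up the library measure given above. Of 11 nuclear retained RNAs 2 rose, beside the same 11.4% of all genes, among them Neat1 from 29.9 ± 9.02 to 45.1 ± 11.0 TPM. Neither of the 2 was called without both libraries a.

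The comparison was then taken within each activity, where the 2 day differences share no library. In running mice 1647 genes were called (9.53%), 1341 higher and 306 lower. In sedentary mice 30 genes were called (0.174%), 18 higher and 12 lower, and 3084 passed an unadjusted p under 0.05. With median-of-ratios scaling the calls were 860 higher and 578 lower in running mice, so that 59.8% of calls were higher against 81.4% on TPM, and 12 higher and 18 lower in sedentary mice. A test of the difference between the activities called 0 genes by limma, and 1242 of 17282 passed an unadjusted p under 0.05, so a difference between the activities was not shown. The running count was 506 without the running library a of day 11, 2984 without the running library b, 691 without the running library f of day 27 and 381 without both libraries a. The sedentary count ranged from 0 to 171 when 1 library was left out, with 0 without the sedentary library e of day 27, 1 without the sedentary library a of day 11 and 171 without the sedentary library b of day 11.

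List medians had the same sign in both activities for some lists and not for others. The cell cycle list had a median of -0.75 in running and -0.61 in sedentary mice, the progenitor list -0.68 and -0.78, the mature granule neuron list 0.79 and 0.44, and the channel list 0.59 and 0.30, beside 0.13 and 0.12 over all genes. Against 0, the sign differed for the immature neuron list, at 0.12 in running and -0.24 in sedentary mice. It also differed for the microtubule list (0.28 and -0.11), the chromatin list (0.11 and -0.05) and the Notch, Wnt and BMP list (0.09 and -0.13). The apoptosis list (0.009 and -0.15) and the vascular list (-0.315 and 0.30) were further such lists. Beside the medians of all genes, the immature neuron, chromatin, apoptosis, and Notch, Wnt and BMP lists lay lower in both activities. These differences between the activities were not tested. Top2a fell in running mice (-1.36 ± 0.19 log2, adjusted p = 0.000711) and in sedentary mice (-1.22 ± 0.19 log2, adjusted p = 0.0346). Egr3 rose in running mice (1.57 ± 0.16 log2, adjusted p = 0.000171) and in sedentary mice (0.93 ± 0.16 log2, adjusted p = 0.0424). Slc8a2 rose by 1.83 ± 0.17 and 0.93 ± 0.17, and the difference of 0.90 ± 0.24 between the activities did not pass (limma adjusted p = 0.571). Dagla, the enzyme that makes the endocannabinoid 2-arachidonoylglycerol, had differences of 1.52 ± 0.14 in running (adjusted p = 9.87e-05) and 0.68 ± 0.14 in sedentary mice (adjusted p = 0.0643), and an adjusted p of 0.469 for the difference between them. The lowest adjusted p for a difference between activities was 0.081, for Dynlt1b, Lars2 and Ly6i, and Dynlt1b has near-identical copies that may share its reads. Lars2, the mitochondrial leucyl-tRNA synthetase gene, stood at 843 and 913 TPM (running) and 2364 and 3157 TPM (sedentary) at day 11 and at 3101 and 2791 TPM (running) and 2166 and 2349.8 TPM (sedentary) at day 27. Its running libraries of day 11 were lower than the other 6.

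**Figure D4:**
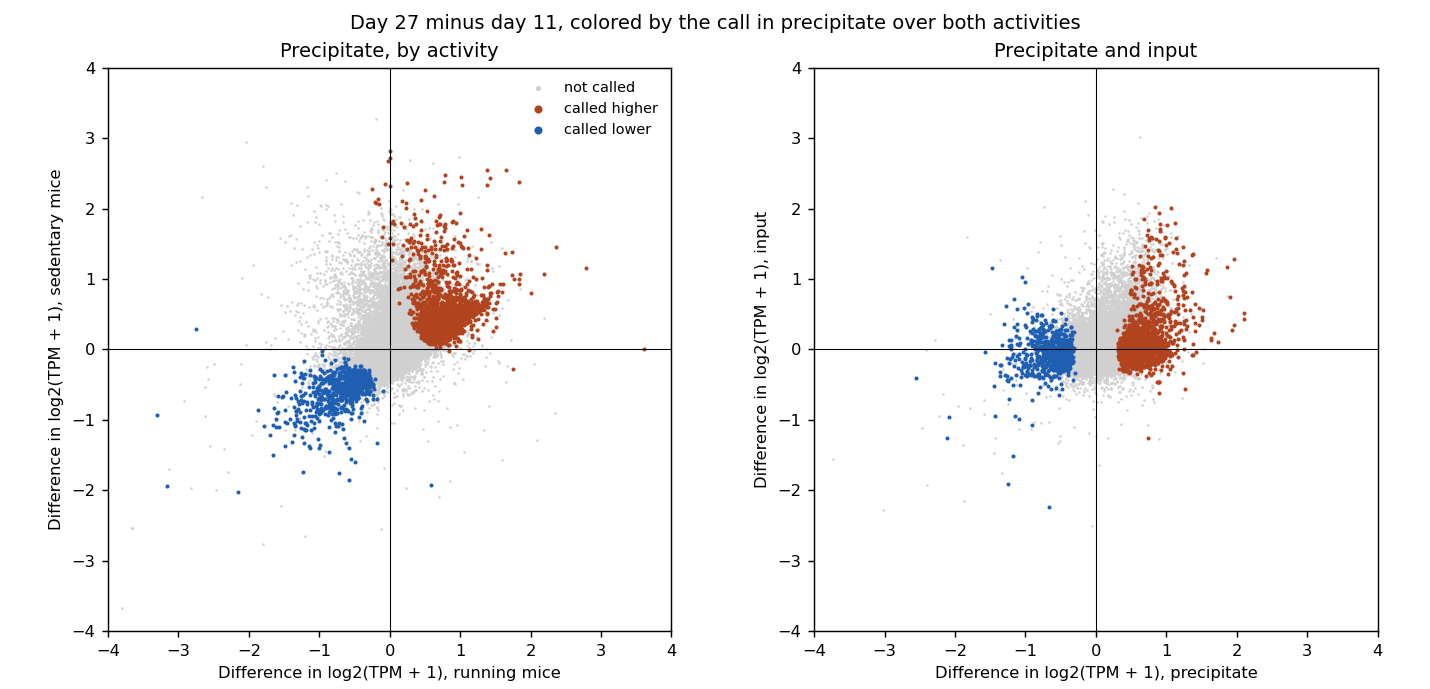
Day 27 minus day 11 in log2(TPM + 1) for each of the genes tested in precipitate, with sedentary against running mice (left) and input against precipitate (right), colored by the call in precipitate over both activities; 3 and 1 points lie outside the axes, and 372 genes without a test in input are left out on the right. Called genes lie mostly in the quadrants of equal sign on the left, which their selection favors, and spread on both sides of 0 in input on the right.

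In input RNA of the dentate gyrus, day 27 against day 11, limma called 0 of 20462 genes, and 2917 passed an unadjusted p under 0.05. When the sedentary input library a of day 11 was left out 1380 genes were called, and 0 to 2 without any other library. That library had a mean olfactory receptor level of 2.58 TPM, and the other day 11 input libraries had 0.518 to 0.709 TPM. The cell cycle list had a median of 0.12 in input, the mature granule neuron list 0.08 and the channel list 0.02. Over all genes tested in precipitate the median in input was 0.07. Top2a stood at 3.31 ± 0.469 and 2.35 ± 0.506 TPM in input, and Egr3 at 74.0 ± 13.1 and 73.5 ± 8.03 TPM.

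The day difference in precipitate differed from that in input for 348 of 19507 genes (1.78%), 285 with a higher and 63 with a lower difference in precipitate. This fit took all libraries as independent and did not pair a precipitate library with the input of the same tissue, so its p-values leave that pairing out. The count was 104 without the running input library f or the sedentary precipitate library e of day 27, 1035 without the running input library b of day 11, and in between without any other library. Among cell cycle genes 11 had a lower difference in precipitate, and none a higher one, and among glutamate receptor and postsynaptic genes 10 had a higher one and none a lower one. Slc8a2 had the lowest p, with a difference between the fractions of 1.46 ± 0.17 on the log2 scale (adjusted p = 0.000911), and input levels of 244 ± 36.9 and 229.9 ± 13 TPM. Doc2b, a calcium sensor of vesicle release, differed by 1.10 ± 0.14 (adjusted p = 0.00145) and Npnt, an extracellular matrix protein, by 1.08 ± 0.14 (adjusted p = 0.00145). In the other direction Shcbp1 differed by -1.89 ± 0.30 (adjusted p = 0.00463), Ncapg, a condensin subunit, by -1.69 ± 0.27 (adjusted p = 0.00463) and Cenpf by -1.40 ± 0.23 (adjusted p = 0.00467). Each of these values is the day difference in precipitate minus that in input. A rise in input is therefore part of such a value, which is not the fall in precipitate alone.

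The 4 precipitate libraries of day 18 place most of these genes between the 2 days. The day 18 mean lay between the day 11 and day 27 means for 1651 of the 1971 genes called higher and for 572 of the 671 called lower. These genes were picked for a difference between the end days, which itself favors a day 18 mean in between. The share over all genes tested is not given, so no conclusion on the time course is drawn from these counts. The cell cycle list had a median difference of -0.37 from day 11 to day 18 and of -0.41 from day 18 to day 27. The medians were -0.52 and then -0.29 for the histone list, -0.14 and then -0.30 for the stem cell list, and 0.29 and then 0.36 for the mature granule neuron list. The immature neuron list had medians of 0.23 and then -0.32, and its mean level was highest at day 18. Its mean log2(TPM + 1) at day 18 was 7.92 and 7.46 in running and 7.11 and 6.86 in sedentary libraries. At day 11 it was 6.92 and 7.44 (running) and 7.30 and 7.07 (sedentary). At day 27 it was 7.54 and 7.035 (running) and 6.93 and 6.90 (sedentary). The high point at day 18 was thus in running libraries only, and this difference between the activities was not tested. The 2 steps share the day 18 libraries and were not tested against each other.

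**Figure D5:**
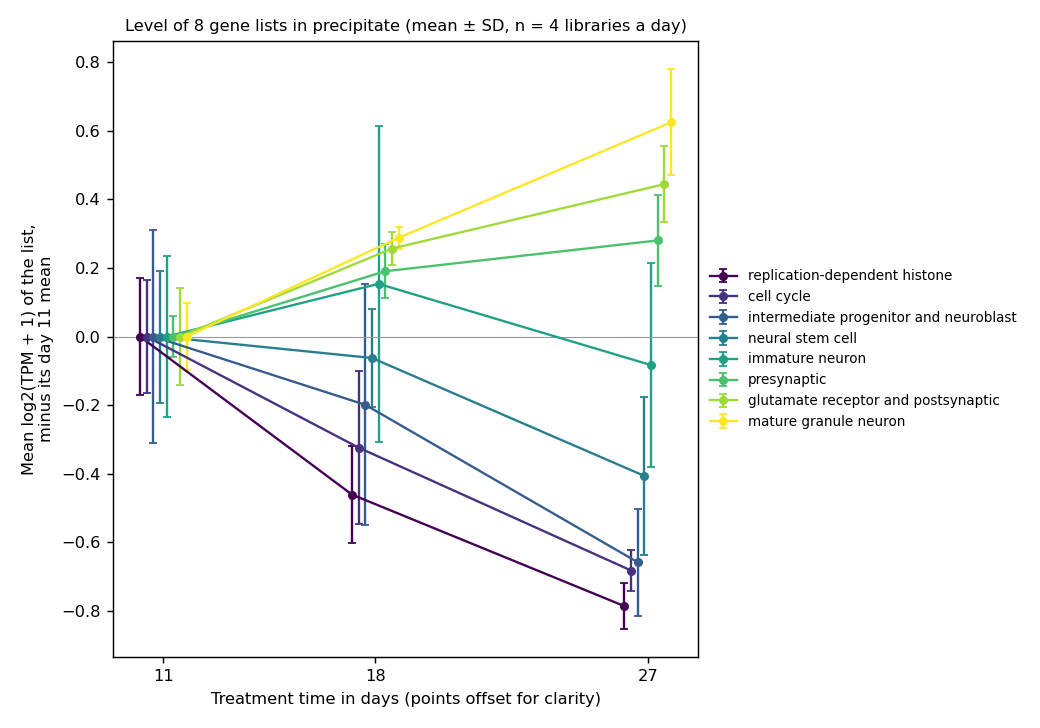
Mean log2(TPM + 1) of 8 gene lists in precipitate at days 11, 18 and 27, minus the list's day 11 mean, with the SD over 4 libraries a day as bars. Histone, cell cycle, progenitor and stem cell lists step down, and presynaptic, postsynaptic and mature granule neuron lists step up. The immature neuron list has its highest mean at day 18 with bars that overlap across days. That high point was in the running libraries only.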

How the data were processed

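RNA of tagged ribosomes (precipitate) and of whole dentate gyrus tissue (input) was sequenced in 12 libraries each. The authors deposited TPM per gene. RSEM and the build mm10 are named in the submitters' processing notes, the library kit is a stranded total RNA kit (v2) per the labels' protocols, and the sources used here do not give the aligner, the annotation or how strand was set. TPM keeps no depth, so the depth of each library is unknown and no counting interval is given.

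From the deposited TPM, log2(TPM + 1) was fitted with limma 3.58.1 (R 4.3.3, trend and robust) over the 12 precipitate libraries by activity and day, for 17282 of 23306 genes with a mean of at least 1 TPM. The contrast was day 27 minus day 11, two-sided, with the Benjamini-Hochberg method over all genes tested and a threshold of 0.05. The same model was fitted within each activity, for input (12 libraries, 20462 genes) and for both fractions together (19507 genes). In the fit of both fractions, precipitate and input of the same tissue were not paired. The procedure was tested on simulated data. The members of the lists and the lists themselves were chosen with earlier results of these data known.

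The genes named are the 15 largest differences in each direction among called, properly named genes of at least 5 TPM in the higher group without overlap (histone and small RNA genes left out), up to 6 genes of lowest p per list, a set of usual markers of this lineage, and up to 5 genes of lowest p per direction in each further contrast. Genes outside this rule are said to be chosen after their values were seen, and Pcna, Mcm2, Ccnd1 and the Gria genes were also chosen so. Alternatives were other pseudocounts and filters, median-of-ratios scaling, the 8 libraries alone, the library letter as a block, the olfactory receptor level as a covariate, and leaving out libraries. Gene coordinates are from GENCODE M21 (mm10), where 16068 tested genes were found, and promoter sequences are from RefSeq (GRCm38.p6).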

Additional observations from a re-analysis of the deposited data

Results flagged for a closer look

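In groups of 4 libraries, a value far from the other 3 by Dixon's criterion was found in 7 of 112 groups examined, and chance gives about 1 in 20. Rpph1 took 17.36% of TPM in the running library a of day 11. At day 11 the sedentary library a was high for Ncdn (429.3 TPM), the running library a for Calb1 (110.0 TPM) and the sedentary library b for Gabra2 (419.4 TPM). At day 27 the running library e was high for Calb2 (246.6 TPM), Neurod1 (257.4 TPM) and Tubb3 (333.8 TPM). The day difference in precipitate differed from that in input for 348 genes by limma's test of the difference itself.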

How the results depend on the processing

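Among the 190 called named genes, all 3221 values under 17 alternatives kept their direction, and 2640 were still called. The alternatives reuse all or most of the libraries that picked these genes, which favors a kept direction. Of 595 list medians recomputed, 57 moved by more than 1 SD over libraries. The counts of genes higher and lower at day 27 became 1130 and 364 with a block for the letter, 1282 and 1504 with median-of-ratios scaling, 68 and 13 with the olfactory receptor covariate, and 453 and 183 without both day 11 libraries a. Leaving out 1 library gave 782 to 3535 higher and 232 to 812 lower genes. The lowest counts were without the sedentary library a of day 11 (782 and 232). The higher count moved by over 1.5 times also without the running library a (1024) or b (3535) of day 11, and both counts did without the running library f (1185 and 389), the sedentary library e (918 and 350) or the sedentary library f (940 and 297) of day 27.

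In running mice the 1647 calls became 381 without both libraries a and 506 to 2984 without 1 library, with 506 without running a, 2984 without running b and 691 without running f. In sedentary mice the 30 calls became 13 with the 8 libraries alone, 12 with no filter, 0 with the covariate, 4 with pseudocount 0.1, 83 with pseudocount 5 and 0 without both libraries a. They became 0 to 171 without 1 library, with 153 without running a, 148 without running b and 171 without sedentary b of day 11, 1 without sedentary a, 52 and 54 without running e and f, 0 without sedentary e and 5 without sedentary f. The 0 genes that differed between activities became 1 with the 8 libraries alone, 9 with the letter block, 1 with no filter, 1 with pseudocount 0.1, 2 with pseudocount 5, and 0 to 3 without 1 library. In input 0 became 0 to 1380 without 1 library, 1380 of them without the sedentary input library a of day 11. The 348 genes that differed between precipitate and input became 109 with the letter block.

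That count became 104 to 1035 without 1 library. For input libraries it was 218 without running a, 1035 without running b, 557 without sedentary a, 157 without sedentary b, 191 and 104 without running e and f, and 187 and 108 without sedentary e and f. For precipitate libraries it was 204 without running a, 490 without running b, 144 and 175 without sedentary a and b, 210.0 and 227 without running e and f, and 104 and 192 without sedentary e and f. The cause of these shifts was not tested. Deviations from the group means of libraries that share a letter correlated at 0.237 (day 11), 0.0465 (day 18) and 0.0714 (day 27). These values of Pearson's r across genes were all positive and highest at day 11. What libraries of the same letter had in common was not tested. With the letter as a block (consensus correlation 0.266) 28 of the 190 named calls were lost, among them Slc12a2 (adjusted p = 0.0707), Tnc (0.0532), Bbc3 (0.0591), Bmpr1b (0.0655), Pfdn4 (0.0707), Rab13 (0.071), Eno1 (0.0772) and Neat1 (0.0518). It gave 1616 calls in running and 31 in sedentary mice, beside 1647 and 30. No count of reads can be had from TPM, so which low genes lack depth is unknown.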
